A study of Mus musculus with 6 samples.

Results

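Regional neural progenitor factors are the transcription factors, with a few partner genes, that divide the embryonic brain and spinal cord into territories. The members were given as a list of 31 genes, and each was measured by the probe sets that carry it as their single gene symbol. Of the 31 genes, 30 had such a probe set, 44 probe sets in all out of 45037 tested, and Pax2 is not analysed here. The genes were chosen by earlier values of the same palate comparison, their levels per array and their double-null minus Fz1-null differences, so the differences below are a description and carry no test. The rule sets no threshold.

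The samples were total RNA of palates from embryonic day E13.5 and hybridised to Affymetrix mouse arrays. There were 3 samples of genotype Fz1-/-; Fz2-/- (double-null) and 3 of genotype Fz1-/-; Fz2+/+ (Fz1-null), numbered 1 to 3 in each group. By their labels all 6 samples lacked Fz1, and no wild-type palate was compared. The embryos were of C57BL6/129 mixed background and mixed gender, and the labels do not say how many embryos or litters a sample holds, so the spread between samples may in part be technical. Fz1 and Fz2 (gene symbols Fzd1 and Fzd2) encode Frizzled proteins, which bind Wnt at the cell surface.

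In the neural tube, Wnt and BMP signals from the dorsal side, Sonic hedgehog from the ventral side and signals along the head-to-tail axis switch on different homeobox and basic helix-loop-helix factors, and pairs of these repress each other so that sharp progenitor domains form. Emx and Otx factors mark the forebrain, engrailed factors the midbrain-hindbrain boundary, Olig and Nkx factors the ventral neural tube, and Pax3, Atoh1 and LIM factors its dorsal and intermediate parts. The palate is not neural tissue, but several of these genes also act close to it. Pax6, Lhx2, Emx2, Otx2 and Neurog1 are used in the nasal placode or cranial sensory lineages, Six3 and Six6 in the eye and pituitary, Pax3 in neural crest, and Fabp7 in glia of peripheral nerves.

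Promoters from RefSeq (build GRCm38.p6) were matched by symbol for 27 of the 31 listed genes, with En2, Olig1, Pax3 and Lhx5 unmatched. Shown here are 6 promoters, a pair from each of the patterns across arrays described below: Lhx1 (chr11:84525535-84525784, minus strand) and Neurod6 (chr6:55681264-55681513, minus strand), which were high on a single array, Lhx2 (chr2:38339031-38339280, plus strand) and Olig2 (chr16:91225300-91225549, plus strand), which changed sign between array pairs, and En1 (chr1:120602237-120602486, plus strand) and Atoh1 (chr6:64728875-64729124, plus strand), which kept 1 sign in all 3 pairs. Lhx1, highest on that array, also kept 1 sign in all 3 pairs. Each sequence is the 250 bases before the annotated start farthest upstream, written in the direction of transcription. Capitals mark CTTTGAT (a Tcf/Lef motif of Wnt target genes), TAATTA (a homeodomain motif), CANNTG (the E-box bound by basic helix-loop-helix factors) and GGGCGG (a GC box), on either strand.
Lhx1 promoter: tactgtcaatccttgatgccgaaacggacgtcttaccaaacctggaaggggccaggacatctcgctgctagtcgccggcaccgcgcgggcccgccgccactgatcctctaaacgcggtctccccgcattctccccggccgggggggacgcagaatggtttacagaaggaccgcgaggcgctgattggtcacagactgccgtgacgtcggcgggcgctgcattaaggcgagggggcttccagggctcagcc
Neurod6 promoter: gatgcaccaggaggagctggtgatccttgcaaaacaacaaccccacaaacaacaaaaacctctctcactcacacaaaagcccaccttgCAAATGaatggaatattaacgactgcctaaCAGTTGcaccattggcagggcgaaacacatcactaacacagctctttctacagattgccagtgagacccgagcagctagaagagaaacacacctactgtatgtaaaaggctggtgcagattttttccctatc
Lhx2 promoter: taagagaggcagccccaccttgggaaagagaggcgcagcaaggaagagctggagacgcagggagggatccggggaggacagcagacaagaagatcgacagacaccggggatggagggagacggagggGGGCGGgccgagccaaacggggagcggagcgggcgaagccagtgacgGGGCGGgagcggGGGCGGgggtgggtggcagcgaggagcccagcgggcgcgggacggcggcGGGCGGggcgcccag
Olig2 promoter: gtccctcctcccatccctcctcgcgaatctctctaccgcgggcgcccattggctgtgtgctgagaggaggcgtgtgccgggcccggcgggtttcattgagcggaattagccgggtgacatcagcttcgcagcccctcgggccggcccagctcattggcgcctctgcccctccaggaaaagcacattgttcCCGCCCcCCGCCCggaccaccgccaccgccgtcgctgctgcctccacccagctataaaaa
En1 promoter: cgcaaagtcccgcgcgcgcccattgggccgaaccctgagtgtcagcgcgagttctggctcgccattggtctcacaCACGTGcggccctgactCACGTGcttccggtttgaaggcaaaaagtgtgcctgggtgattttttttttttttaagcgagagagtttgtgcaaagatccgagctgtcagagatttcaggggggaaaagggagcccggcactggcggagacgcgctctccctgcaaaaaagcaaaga
Atoh1 promoter: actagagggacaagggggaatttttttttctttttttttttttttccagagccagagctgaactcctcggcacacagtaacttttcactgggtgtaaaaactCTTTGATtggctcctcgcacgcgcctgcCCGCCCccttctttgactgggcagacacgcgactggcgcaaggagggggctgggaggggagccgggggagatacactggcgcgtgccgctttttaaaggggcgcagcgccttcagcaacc

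The printed promoters differ in composition. Neurod6 holds 3 CpG dinucleotides and 2 E-boxes, whereas Lhx1 holds 26 CpG and none of the 4 motifs. Lhx2 holds 4 GC boxes and Olig2 holds 2, and En1 holds 2 E-boxes with the letters CACGTG. Over the 27 member promoters the median was 15 CpG and 58.8% G or C, against 10 CpG and 55.2% over the 17492 promoters of protein-coding genes. CTTTGAT was present in 1 of 27 member promoters, that of Atoh1 (3.70%, against 2.89% of all), and TAATTA in 2 of 27 (7.41%, against 4.46%). An E-box was present in 11 of 27 (40.7%, against 62.7%) and a GC box in 12 of 27 (44.4%, against 42.7%). These matches describe letters in 1 window per gene, not binding sites.

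Of the targeted genes, Fzd2 differed between the groups in the direction of the labels. It read 10.21, 10.53 and 10.20 on the log2 scale in double-null palates 1, 2 and 3, against 11.46, 11.60 and 11.64 in Fz1-null palates (brightest of 3 probe sets), a difference of -1.25 (SE 0.11). With limma its adjusted p was 0.217 without the replicate number as a block and 0.00889 with it. Fzd1, which the labels give as null in both groups, read 7.43, 7.47 and 7.51 in double-null palates, against 7.40, 7.36 and 7.40 in Fz1-null palates by its brighter probe set, above the low-end limit explained below. Its other probe set averaged 4.35 in double-null and 4.39 in Fz1-null palates. With no wild-type palate, these levels do not check the Fz1 label, and where the probe sets lie relative to the mutation is not given in the sources used here. All 8 palatal mesenchyme markers lay above the same limit, with list means of at least 9.73 in double-null and at least 9.91 in Fz1-null palates. Double-null array 3 stood apart from the other arrays: 25 probe sets lay at least 1 log2 unit above every other array there, against 0 to 4 on each other array. Of those 25 probe sets, 9 belonged to Hox genes, which pattern the hindbrain, cord and trunk, and 3 of the 44 member probe sets were among them, against 0.0555% of all probe sets. The same array had an SD of 1.99 over all probe sets, against 2.03 to 2.06 on the others, a narrower distribution.

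Whether the list was measured above the low end of the scale was described first, because the deposited values carry no detection calls. Probe sets of smell, pheromone and taste receptor genes (83 in all) served as a mark of that end, and their 95th percentile, 7.14, is called the receptor limit here. Of the 44 member probe sets 18 lay above it and 26 below, and 3 lay within 0.2 of it. Over all probe sets 51.9% lay above it. By gene, 15 had a probe set above the limit and 15 had none. Probe sets differ in how strongly they respond, so a position below the limit is not a call of absence.

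**Figure D1:**
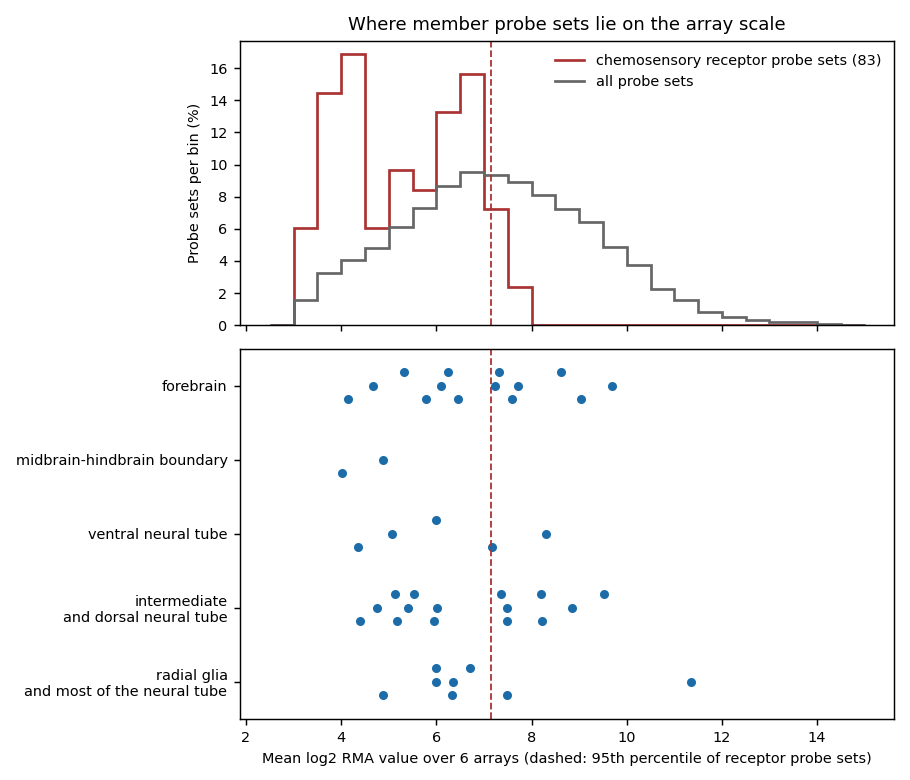
Mean log2 RMA value over the 6 arrays, on the horizontal axis, of 83 chemosensory receptor probe sets and all 45037 probe sets (top, percent of probe sets per bin of 0.5) and of the 44 member probe sets by region of origin (bottom, 1 point each; vertical offset within a row has no meaning). Of the member probe sets 18 lie right of the dashed receptor limit at 7.14, and Fabp7, at 11.35, lies farthest right.

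By region of origin, the genes above the limit were spread unevenly. Of 10 forebrain factors 7 lay above it: Emx1, Emx2, Dmrta2, Lhx2, Six3, Six6 and Otx2. Of the 10 intermediate and dorsal neural tube factors 4 did: Dbx1, Pax3, Irx3 and Neurog1. Olig1 and Olig2 did so among 5 ventral factors, and Pax6 and Fabp7 among the 3 genes of radial glia and most of the neural tube. Neither En1 nor En2, the midbrain-hindbrain boundary pair, lay above it. Emx1 and Olig2 were the closest to it, with means of 7.23 and 7.17.

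Across the 30 genes, each by its brightest probe set, 16 were higher and 14 lower in double-null palates, with a median log2 difference of 0.04. Over all 18193 genes 45.7% were higher and the median was -0.01. No member probe set passed an adjusted p of 0.05 in limma, where 0% of all probe sets did, nor with the replicate block, where 0.00666% did, all of them of Fzd2. At an unadjusted p under 0.05, limma gave 3 member probe sets higher (0.691% of all probe sets) and 2 lower (0.266%), the replicate block gave 14 (4.71%), and the authors' deposited table gave 1 (1.81%). These counts come from the contrast that was known when the list was chosen, so nothing is read from them.

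In the values as deposited, the sign of a difference went with the position on the scale, for members and for all genes. Of the 15 members above the receptor limit 4 were higher in double-null palates, against 33.7% of all genes above it, and 11 were lower, against 66.3%. The medians there were -0.14 for members and -0.02 for all genes. Of the 15 members below the limit 12 were higher, with a median of 0.21, and 67.1% of all genes below it were higher, with a median of 0.04. The shares of members thus lay near those of all genes of like level, while the member medians lay farther from 0. Above the limit that was not particular to members. Of the marker lists wholly above the limit, epithelial genes had a median of -0.21, palatal mesenchyme genes -0.17 and sensory ganglion genes -0.12. Neuronal genes had -0.03 and endothelial genes 0.05. Of the lists mostly below the limit, 3 stayed closer to 0 than the members below it. Other regional brain genes had a median of 0.05, retina, pigment epithelium and lens genes 0.07, and choroid plexus genes -0.03. Hindbrain and cord Hox genes had 0.33, which was 0.01 without double-null array 3. After repeated quantile normalisation the shares over all genes were 50.1% higher above the limit and 56.0% higher below it, while 11 of 15 members above it were still lower (median -0.11) and 11 of 15 below it higher (median 0.19). Without double-null array 3, the share of all genes higher was 47.4% above the limit and 55.1% below it, with medians of -0.01 and 0.01, and 5 of 15 members above it and 11 of 15 below it were higher, with medians of -0.04 and 0.10.

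**Figure D2:**
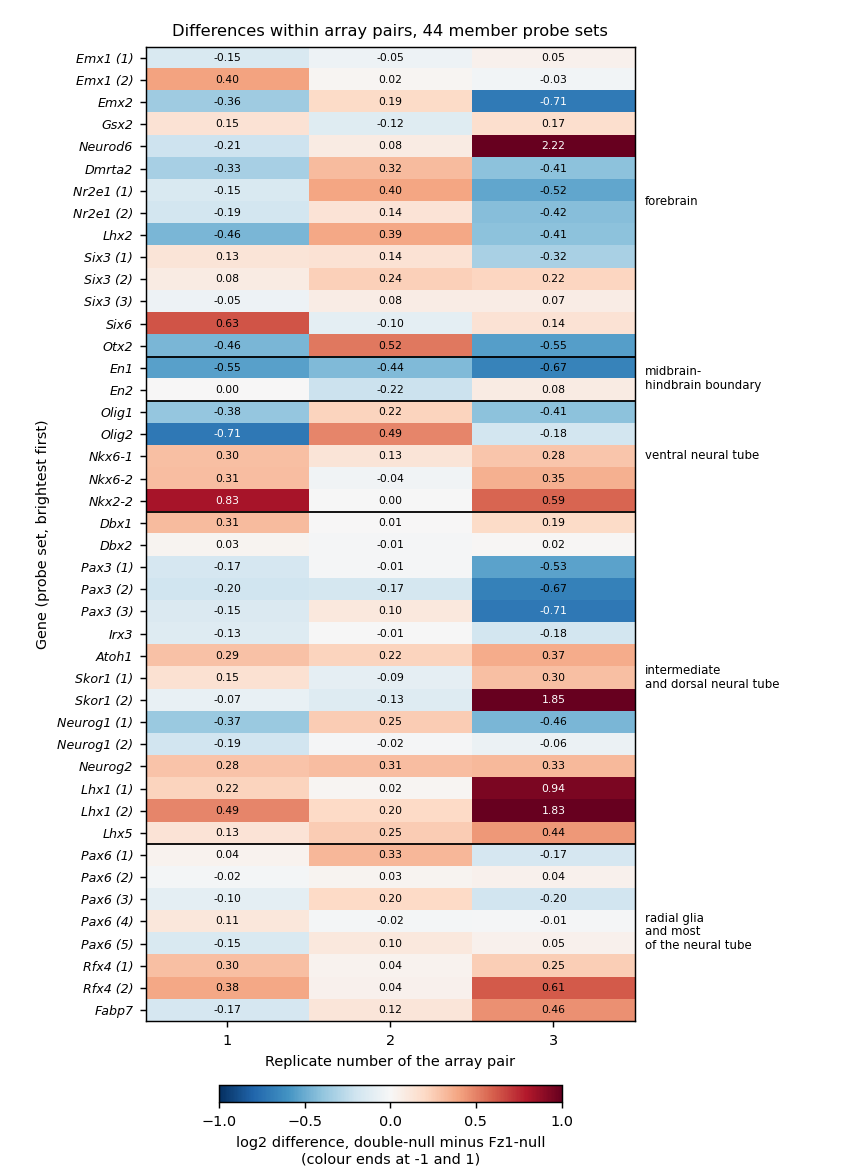
Log2 difference, double-null minus Fz1-null, within each pair of arrays with the same number (columns), for the 44 member probe sets (rows, by region, brightest probe set of a gene first). Neurod6, Skor1 and Lhx1 reach 2.22, 1.85 and 1.83 in pair 3, and a block of forebrain rows with Olig1 and Olig2 is lower in pairs 1 and 3 and higher in pair 2.

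Among the forebrain factors 3 of 10 were higher and 7 lower, and pairs 1, 2 and 3 had medians of -0.18, 0.17 and -0.36. Of these 10 genes 7 lay above the receptor limit, where 66.3% of all genes were lower. Neurod6, a basic helix-loop-helix factor of young cortical neurons, read 3.86, 3.75 and 5.86 in double-null palates 1, 2 and 3, against 4.07, 3.67 and 3.64 in Fz1-null palates. Double-null array 3 alone was high, and the other double-null arrays lay within the range of the Fz1-null arrays. The group difference of 0.70 (SE 0.51) became 0.01 without that array. Neurod6 lay below the receptor limit on every array, since the highest value was 5.86.

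Emx2, a homeobox factor of the dorsal telencephalon that also marks nasal epithelium, read 8.26, 8.84 and 8.32 in double-null palates, against 8.61, 8.64 and 9.03 in Fz1-null palates. Its difference was -0.29 (SE 0.18), the groups overlapped, and array 2 of the double-null group lay above its Fz1-null partner. Leaving out double-null array 1 or 2 gave -0.18 or -0.47, and leaving out Fz1-null array 3 gave -0.16. Six6, an eye and pituitary factor, read 7.74, 7.55 and 7.02 in double-null palates, against 7.11, 7.65 and 6.87 in Fz1-null palates, a difference of 0.22 (SE 0.24). Leaving out double-null array 1 or 3 gave 0.07 or 0.43, and leaving out Fz1-null array 2 or 3 gave 0.44 or 0.06. Its relative Six3 differed by -0.02 (SE 0.11) in its brightest probe set, and by 0.18 (SE 0.09) and 0.03 (SE 0.09) in others below the limit. Emx1 likewise had 1 probe set at -0.05 (SE 0.08) and a dimmer one at 0.13 (SE 0.17), and Gsx2, a factor of the lateral ganglionic eminence, differed by 0.07 (SE 0.14).

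A run of members shared a pattern over the 3 pairs: lower in double-null palates in pair 1, higher in pair 2 and lower in pair 3, each by more than 0.1. It held for 10 of the 44 member probe sets, against 1.99% of all probe sets, and was picked out after the values were seen. The genes were Emx2, Dmrta2, Lhx2, Nr2e1 (both probe sets), Otx2, Olig1, Olig2, Neurog1 (the brighter of its probe sets) and Pax3 (the dimmest of its 3 probe sets). The mirrored pattern (higher, lower, higher) held for 1 member probe set, against 2.8% of all. Apart from those of Nr2e1, the probe sets with the first pattern lay above the receptor limit. All genes above it had pair medians of the same signs, -0.03, 0.004 and -0.05. All genes below it had 0.06, -0.03 and 0.08. How many genes of like level had the pattern was not counted.

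Lhx2, a LIM factor of the cortex, eye field and olfactory neurons, read 9.23, 10.22 and 9.37 in double-null palates, against 9.69, 9.83 and 9.78 in Fz1-null palates. Olig2, which specifies motor neuron and oligodendrocyte progenitors, read 6.51, 7.72 and 7.08 in double-null palates, against 7.22, 7.23 and 7.27 in Fz1-null palates. In both genes the Fz1-null arrays lay close together, and double-null arrays 1 and 3 lay below them and array 2 above. The SD of Lhx2 was 0.54 in double-null and 0.07 in Fz1-null palates, and that of Olig2 was 0.60 and 0.02 (n = 3 each). Otx2, which marks the forebrain and midbrain, read 7.34, 8.07 and 7.51 in double-null palates, against 7.80, 7.54 and 8.06 in Fz1-null palates, so here both groups varied. Group differences were -0.16 (SE 0.24) for Lhx2, -0.14 (SE 0.26) for Olig2, -0.16 (SE 0.20) for Otx2, -0.14 (SE 0.18) for Dmrta2, a zinc finger factor of the telencephalon, -0.09 (SE 0.19) and, by its dimmer probe set, -0.16 (SE 0.11) for Nr2e1, a nuclear receptor of forebrain stem cells, and -0.19 (SE 0.17) for Olig1. Without double-null array 1, Lhx2 lay at 0.03 and Olig2 at 0.16, and without double-null array 3, Nr2e1 lay at 0.08 by its brighter and -0.12 by its dimmer probe set.

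**Figure D3:**
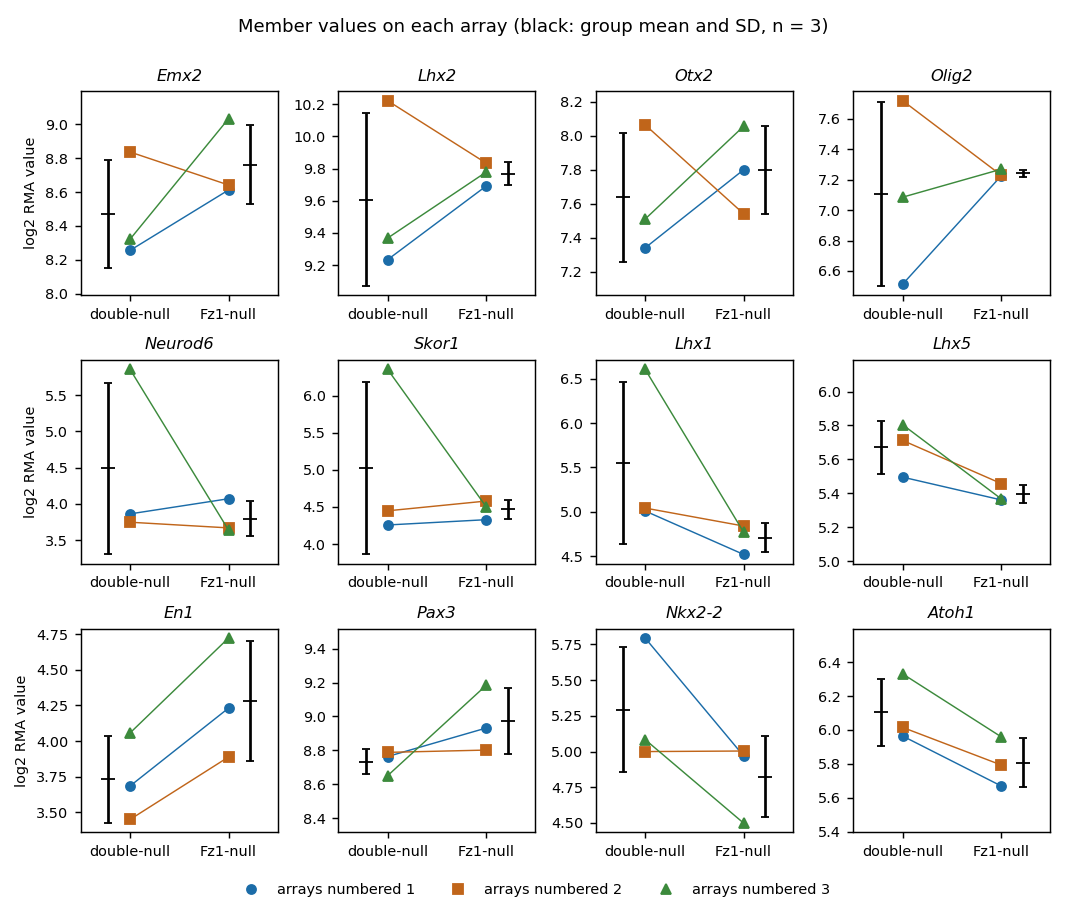
Log2 RMA value of 12 members on each array, with double-null palates left of Fz1-null palates in each panel, lines joining arrays of the same number, and black bars at the group mean ± SD (n = 3). The vertical axes differ between panels. Skor1 and Lhx1 are shown by their dimmer probe sets, at 6.36 and 6.61 on double-null array 3.

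Some other genes had the same signs over the pairs. Sp8, a zinc finger factor of the forebrain and nasal processes from the list of other regional brain genes, had pair differences of -0.51, 0.25 and -0.74. It had the lowest difference of that list, whose pair medians were 0.11, -0.0004 and 0.16. Fezf1, a forebrain and olfactory factor named after its values were seen, had -0.32, 0.18 and -0.57. Also named after their values were seen, Tfap2b had -0.46, 0.20 and -0.56 by its brighter probe set, and Cxcr4 had -0.37, 0.32 and -0.37. Olfactory sensory genes had pair medians of -0.14, 0.05 and 0.02 over 6 genes, with the same signs in pairs 1 and 2 only. The samples were of mixed gender, and Y-linked genes varied between arrays. Kdm5d, by the probe set that varied most, read 4.0, 7.98 and 5.47 in double-null palates, against 7.22, 6.02 and 6.04 in Fz1-null palates, with pair differences of -3.22, 1.96 and -0.57. Its other probe sets differed by -0.81, 1.01 and 0.12 and by 0.02, 0.10 and 0.06, and Eif2s3y, also Y-linked, by -3.64, 2.06 and -0.38 in the probe set that varied most. The part of these measures in the pattern was not tested. In bulk samples, fewer cells of a type and less RNA per cell cannot be told apart.

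At the midbrain-hindbrain boundary, En1 was lower in all 3 pairs. En1, a homeobox factor needed for midbrain and cerebellum, read 3.68, 3.45 and 4.06 in double-null palates, against 4.23, 3.89 and 4.72 in Fz1-null palates, a difference of -0.55 (SE 0.23) with pair differences of -0.55, -0.44 and -0.67. The groups overlapped in that double-null array 3 lay above Fz1-null array 2. The difference was -0.33 without Fz1-null array 3 and -0.19 on the scale of log2 of the value plus 32. It was -0.75 without Fz1-null array 2 and -0.71 without double-null array 3. Every value lay near the bottom of the scale, under the receptor median of 5.39. En2, its paralogue, read 4.97, 4.64 and 4.97 in double-null palates, against 4.96, 4.86 and 4.90 in Fz1-null palates, a difference of -0.05 (SE 0.11). Lower in 3 of 3 pairs were 5 of the 44 member probe sets, against 12.8% of all probe sets.

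Of the ventral neural tube factors 3 of 5 were higher and 2 lower. Nkx2-2, which marks the most ventral progenitors, read 5.80, 5.0 and 5.08 in double-null palates, against 4.97, 5.0 and 4.50 in Fz1-null palates, a difference of 0.47 (SE 0.23), which was 0.22 when double-null array 1 was left out and 0.31 when Fz1-null array 3 was. The arrays of pair 2 differed by -0.004, and the groups overlapped. Nkx6-1, a homeobox factor of ventral progenitors, read 5.93, 6.03 and 6.40 in double-null palates, against 5.62, 5.90 and 6.12 in Fz1-null palates, higher in each pair, with a difference of 0.24 (SE 0.16). Leaving out double-null array 3 gave 0.10, and leaving out Fz1-null array 1 or 3 gave 0.11 or 0.36. Nkx6-2, its paralogue, differed by 0.21 (SE 0.11), and arrays of the pair numbered 2 read 4.44 in the double-null and 4.48 in the Fz1-null palate. The 3 Nkx genes lay below the receptor limit, where 67.1% of all genes were higher. The 2 Olig genes lay above it, where 66.3% of all genes were lower.

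Of the intermediate and dorsal neural tube factors 7 of 10 were higher. Only 4 of these 10 lay above the receptor limit, and below it 67.1% of all genes were higher. Lhx1, a LIM factor of interneurons, read 5.40, 5.35 and 6.05 in double-null palates, against 5.18, 5.33 and 5.11 in Fz1-null palates, and by its dimmer probe set 5.01, 5.04 and 6.61, against 4.52, 4.84 and 4.77. Both probe sets showed no overlap between the groups, with double-null array 3 well above the rest. The differences were 0.39 (SE 0.18) and 0.84 (SE 0.39), and without that array they were 0.17 and 0.32. Lhx5, its closest relative, read 5.50, 5.71 and 5.80 in double-null palates, against 5.36, 5.46 and 5.37 in Fz1-null palates. All double-null arrays lay above all Fz1-null arrays by small steps, a difference of 0.27 (SE 0.10), or 0.21 without double-null array 3.

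Skor1, a corepressor of dorsal cord interneurons, depended on the probe set. The dimmer one read 4.26, 4.45 and 6.36 in double-null palates, against 4.33, 4.58 and 4.51 in Fz1-null palates, a difference of 0.55 (SE 0.49) that was -0.12 without double-null array 3. The brighter one read 5.18, 5.17 and 5.36 in double-null palates, against 5.03, 5.26 and 5.06 in Fz1-null palates, a difference of 0.12 (SE 0.10). Double-null array 3 was thus the highest in both, by an amount that differed greatly.

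Hox genes and muscle genes were high on the same array. The 12 measured Hox genes of hindbrain and cord had list means of 6.19, 5.98 and 7.07 in double-null palates 1, 2 and 3, against 6.05, 6.02 and 6.14 in Fz1-null palates, and all 12 were higher in pair 3. By their means over all arrays 3 of the 12 lay above the receptor limit. Hoxb5, which lay below it, read 6.33, 6.09 and 8.89 in double-null palates, against 6.09, 6.26 and 6.37 in Fz1-null palates. Hoxa5 depended on the probe set. The dimmer one read 7.70 on double-null array 3, against 4.78 on the next highest array, and the brighter one 8.25, against 8.14. Lbx1, a factor of dorsal cord interneurons and migrating muscle precursors named after its values were seen, read 5.94, 5.61 and 6.94 in double-null palates, against 5.97, 5.83 and 5.79 in Fz1-null palates by the probe set that varied most. Its other probe set read 6.48, 6.32 and 6.65 in double-null palates, against 6.33, 6.33 and 6.49, without a like excess on double-null array 3. The 10 skeletal muscle genes had means of 7.65, 7.64 and 8.31 in double-null palates, against 7.69, 7.80 and 7.74 in Fz1-null palates, and the 8 epithelial genes 9.23, 9.34 and 8.94, against 9.20, 9.50 and 9.51. The part of these tissues in the values of Lhx1, Skor1 and Neurod6 was not tested.

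Atoh1, the proneural factor of the most dorsal interneurons, was 1 of the few members without overlap on all arrays. It read 5.96, 6.02 and 6.33 in double-null palates, against 5.67, 5.79 and 5.96 in Fz1-null palates, a difference of 0.30 (SE 0.12), and 0.18 without double-null array 3. The margin was narrow, since the lowest double-null and the highest Fz1-null array both rounded to 5.96. Neurog2, a proneural factor of many cord and brain progenitors, read 6.39, 5.87 and 6.23 in double-null palates, against 6.11, 5.56 and 5.90 in Fz1-null palates. Its pair differences of 0.28, 0.31 and 0.33 were nearly equal, although the groups overlapped, and its difference was 0.31 (SE 0.17). Leaving out 1 array moved it down to 0.19 (double-null array 1) or 0.16 (Fz1-null array 2). It moved up to 0.45 without double-null array 2 and to 0.43 without Fz1-null array 1.

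Neurog1, its relative in cranial sensory neurons, did not follow Neurog2. Its brighter probe set differed by -0.19 (SE 0.24), and by 0.06 without double-null array 3, and the dimmer by -0.09 (SE 0.08). Higher in 3 of 3 pairs were 10 of the 44 member probe sets, against 11.6% of all. They include both probe sets of Lhx1 and of Rfx4. Apart from that of Dbx1 they lay below the receptor limit, where 67.1% of all genes were higher. The share among probe sets of like level was not counted.

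Pax3, a paired-box factor of dorsal neural tube, neural crest and muscle precursors, was the member above the receptor limit whose groups separated. It read 8.76, 8.79 and 8.65 in double-null palates, against 8.93, 8.80 and 9.18 in Fz1-null palates, and by its second probe set 8.12, 7.98 and 8.04, against 8.32, 8.15 and 8.71. Both probe sets were lower without overlap, by -0.24 (SE 0.11) and -0.35 (SE 0.14), with the widest gap in pair 3. The brightest probe set lay at -0.13 without Fz1-null array 3 and at -0.09 without both arrays numbered 3, the second setting added after the data were seen. The third probe set overlapped, with a difference of -0.25 (SE 0.19). Irx3, an Iroquois factor, differed by -0.11 (SE 0.15), Dbx1, a factor of intermediate interneurons, by 0.17 (SE 0.11), and its paralogue Dbx2 by 0.01 (SE 0.08). Groups without overlap occurred for 5 member probe sets on the higher side, against 2.79% of all probe sets, and for 2 on the lower side, against 1.73%. The higher ones, of Atoh1, Lhx1 (both probe sets), Lhx5 and Rfx4 (the dimmer), lay below the receptor limit, where 67.1% of all genes were higher. Those on the lower side, both of Pax3, lay above it, where 66.3% of all genes were lower. The shares among probe sets of like level were not counted, so nothing is read from these counts.

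Of the genes used along most of the neural tube, Fabp7, a fatty acid binding protein of radial glia and peripheral glia, read 11.64, 10.93 and 11.70 in double-null palates, against 11.81, 10.80 and 11.24 in Fz1-null palates. The arrays numbered 2 were lowest in both groups, and the difference was 0.14 (SE 0.29), or -0.10 without Fz1-null array 2. Schwann and crest glia markers had pair medians of -0.10, 0.16 and 0.06 over 4 genes, beside -0.17, 0.12 and 0.46 for Fabp7. Rfx4, a winged-helix factor of neural progenitors, read 6.85, 6.65 and 6.91 in double-null palates, against 6.55, 6.61 and 6.67 in Fz1-null palates, a difference of 0.19 (SE 0.09), and by its dimmer probe set 5.05, 4.76 and 5.33, against 4.67, 4.72 and 4.72, a difference of 0.34 (SE 0.14). The dimmer probe set showed no overlap.

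Pax6, a paired-box factor of forebrain, eye and nasal epithelium, read 7.48, 7.83 and 7.22 in double-null palates, against 7.45, 7.50 and 7.39 in Fz1-null palates by its brightest probe set, a difference of 0.07 (SE 0.15). Its other 4 probe sets lay below the limit and differed by -0.03 to 0.03, so none of the 5 showed a difference larger than its SE.

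Lists of other neural genes were set beside the members for each pair. The 4 measured Zic genes, zinc finger factors of dorsal neural tube and mesenchyme, were all higher, with pair medians of 0.46, 0.51 and 0.35 (3 of 4 higher in pair 3), and Zic1 read 10.18, 10.08 and 10.70 in double-null palates, against 9.79, 9.42 and 9.50 in Fz1-null palates. General neural progenitor genes were higher in 9 of 11, with pair medians of 0.21, 0.12 and 0.07. Sox1, which lay below the receptor limit, differed by 0.34 (SE 0.09), and Pou3f3, which lay above it, by -0.06 (SE 0.12). Above the receptor limit, where 33.7% of all genes were higher, lay 2 of 4 Zic genes and 9 of 11 general neural progenitor genes. Both lists were chosen with earlier results known, so these counts are a description. The other regional brain genes were higher in 13 of 17, with 2 of 17 above the receptor limit, so most lay at the low end of the scale, where 67.1% of all genes were higher. Neuronal genes, all 11 above the limit, had pair medians of -0.35, -0.07 and 0.14, lower in 10 of 11 in pair 1 and higher in 11 of 11 in pair 3, from Dcx at 0.29 (SE 0.38) to Nefm at -0.24 (SE 0.30).

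Markers of tissues beside the palate were also measured, and their part in the members' values was not tested. Rathke pouch and pituitary genes had pair medians of 0.28, -0.19 and 0.10, beside pair differences of 0.63, -0.10 and 0.14 for Six6, and Pomc differed by 0.20 (SE 0.18) and Cga by -0.05 (SE 0.22). Retina, pigment epithelium and lens genes had pair medians of 0.20, -0.10 and 0.09, with 1 of 8 above the limit. Choroid plexus genes stayed between -0.06 and 0.05, and sensory ganglion genes had -0.20, -0.18 and 0.12, with Ntrk2 at 0.12 (SE 0.11) and Prph at -0.30 (SE 0.22). No member of any of these lists passed an adjusted p of 0.05 in limma, with or without the replicate block.

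**Figure D4:**
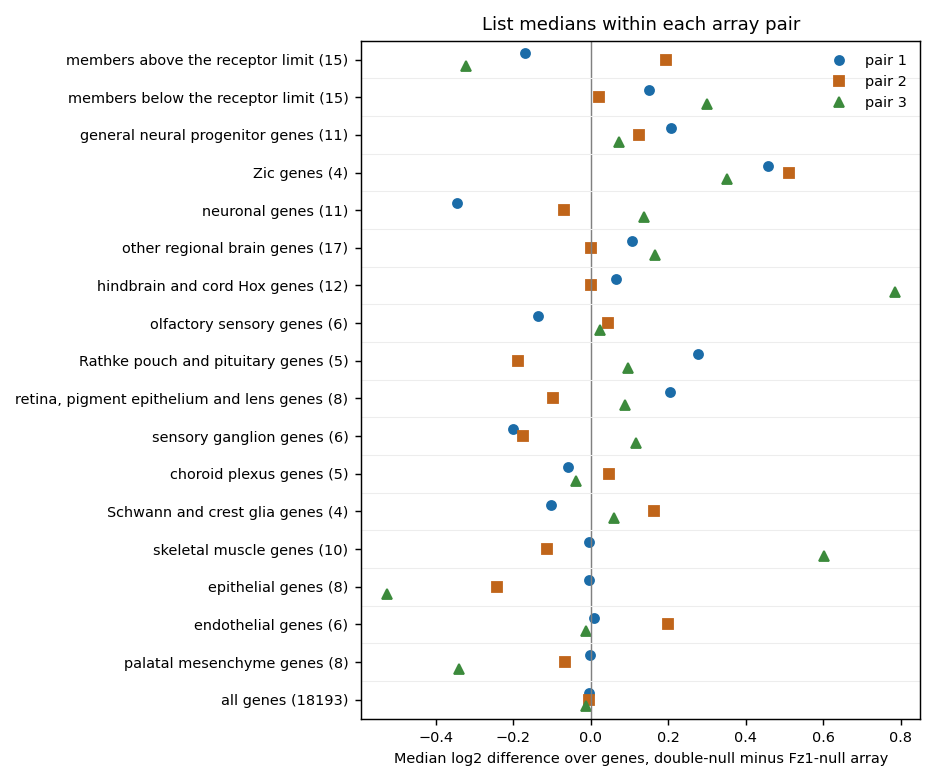
Median log2 difference over the genes of each list, double-null minus Fz1-null, within each array pair (circle pair 1, square pair 2, triangle pair 3; number of measured genes in brackets). Members above the receptor limit lie at -0.17, 0.19 and -0.32, Hox genes at 0.78 and skeletal muscle genes at 0.60 in pair 3, and all genes near 0.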

How the data were processed

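The authors deposited log2 probe set values made with RMA, per the submitters' processing notes (software and version not given in the sources used here), and a table with a log2 fold change, a signed fold change score and an unadjusted p-value, per the file headers. That log2 fold change equals the Fz1-null minus the double-null mean (largest difference 4.93e-08), and every difference here runs the other way, double-null minus Fz1-null. RMA normalises by quantiles, so a change common to nearly all RNAs is hidden, and the number of arrays limits the precision.

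The table held 45101 probe sets, of which 64 were Affymetrix controls and not tested. The platform annotation gave 34945 a single symbol and 932 several, and 9160 were not listed. limma 3.58.1 (R 4.3.3; lmFit, eBayes) was fitted to all probe sets with genotype as the only term, with Benjamini-Hochberg adjustment and a threshold of 0.05, and was tested on simulated data. SE is its moderated standard error, from the fit without the replicate block. It thus does not use the pairing of arrays and does not measure the spread of pair differences. The labels do not say what a replicate number shares. Arrays of 1 number deviated together from their groups (correlations 0.63, 0.44 and 0.63), so the numbers were treated as pairing the arrays. Genes are given by their brightest single-symbol probe set. All members are named, with their other probe sets where these differ in sign or the brightest lies below the receptor limit. Array values are given where groups do not overlap and for up to 3 members a region with the largest difference. Those of further members, and all genes outside the lists, were chosen after their values were seen. Of each other list the genes with the highest and lowest difference could be named. The members, regions and lists were chosen with earlier results of these data known. Endothelial genes, also listed, had pair medians of 0.01, 0.20 and -0.01. Alternatives were other moderation, array weights, the replicate block, other scaling, a filter on level, log2 of the value plus 32, leaving out arrays or pairs, and averaging all probe sets per gene.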

Additional observations from a re-analysis of the deposited data

How the results depend on the processing

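No call over all probe sets changed except under the replicate block, where 3 probe sets passed, all of Fzd2 (whose difference stayed at -1.25), and the block changed no call of a member. Under other moderation, scaling, weights, a threshold of 0.1, left-out arrays or pairs, and for the authors' deposited p-values after Benjamini-Hochberg adjustment (chosen after seeing the data), the count stayed at 0. The median difference of the members was 0.04, ranged from -0.004 to 0.04 when 1 array was left out, and was -0.14 among probe sets above the median value, where 4 members were higher. That filter left out the 15 members below the receptor limit, and also Emx1 and Olig2, so the 4 are not out of all 30. The number of members higher was 16, and 15 to 19 with 1 array left out. Above the 99th percentile of the receptor probe sets lay 10 member probe sets, against 18 above the 95th, and 17 or 18 with 1 array left out. The sign changed under at least 1 setting for 14 of 30 members, most often without double-null array 3 (6 members: Gsx2, Nr2e1, Six3, Dbx2, Neurog1 and Fabp7), and the cause was not tested. Dbx2 changed sign with repeated quantile normalisation (-0.01). Both Emx1 (0.04) and Six3 (0.07) did with the mean of all probe sets. Without the arrays numbered 3, added after seeing the data, Neurod6 lay at -0.07. RMA values carry no signal over background, so members below the receptor limit are the least certain.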
